A study of Mus musculus with 13 samples.

Results

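Nes, Vim and Gfap encode the 3 intermediate filament proteins used to follow immature and reactive glia: nestin, vimentin and glial fibrillary acidic protein. They were chosen by their symbols and from their known reads in these libraries, 3 of the 55416 genes of the table, so their own levels are described below without a test. The series profiled RNA from 13 mouse brain samples. Both tumor groups were glioblastomas induced by lentivirus injected into the motor cortex. The hosts were CNP-Cre mice, allele Cnptm1(cre)Kan, in which Cre recombinase is driven from the Cnp locus, an oligodendrocyte gene. In 5 tumors the virus expressed PDGFB, the growth factor that activates PDGF receptors, together with shp53, a short hairpin RNA against p53 (PDGFB tumors, tumors 1 to 5). In the other 5 it expressed HRasV12, an activated form of HRas, together with the same shp53 (RAS tumors, tumors 1 to 5). Thus every tumor carried the p53 hairpin and both groups share the CNP-Cre background. GFP-positive tumor tissue was taken at clinical endpoint from 5 mice a group after the neighbouring normal tissue had been cut away. The 3 normal brain samples are labelled WT, with no brain region, age or number of animals given, and the ages of the tumor mice are not given either. Where 2 normal samples came from 1 animal, p-values would measure the spread between these samples only.

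Intermediate filaments are built from coiled-coil dimers that pack side by side into ropes of the cytoskeleton. Nestin does not form filaments alone and co-assembles with vimentin in neural progenitors. Vimentin is the main filament of immature glia, mesenchymal cells, endothelium and many myeloid cells, and GFAP joins or replaces it as astrocytes mature and again when they become reactive.

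In the GRCm38 assembly with GENCODE M21 annotation, Nes (ENSMUSG00000004891) lies on the plus strand of chromosome 3 from base 87971078 to 87980451. Vim (ENSMUSG00000026728) lies on the plus strand of chromosome 2 from base 13573927 to 13582826. Gfap (ENSMUSG00000020932) lies on the minus strand of chromosome 11 from base 102887336 to 102900912. All are protein coding, with 6416, 4743 and 4218 bases of merged exon. None has an annotated exon on the other strand over one of its own exons. The single gene annotated over any of them on the other strand is the lincRNA gene Gm26668, which holds Gfap wholly within an intron and is not analysed here.

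**Figure D1:**
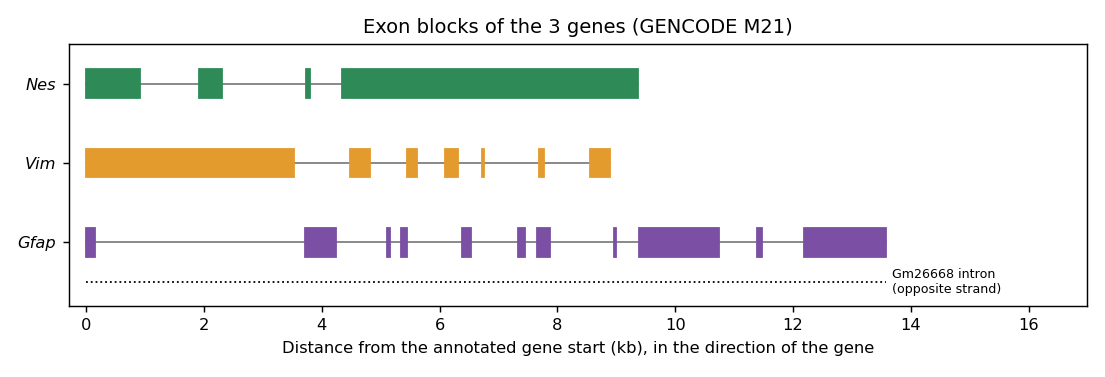
Exons (boxes) and introns (lines) of Nes, Vim and Gfap by distance in kb from each gene's start, from GENCODE M21, with any gene on the opposite strand drawn below. No exon of the 3 genes meets an exon on the other strand.

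The promoter sequences of Nes and Gfap are shown because their levels differed most in pattern across the groups. Both are from RefSeq (GRCm38.p6), run 5′ to 3′ on the gene's strand and lie before the RefSeq transcript start. The Nes stretch covers chr3:87970843-87971077, plus strand, and stops 15 bases short of that start, at the gene's first annotated base in GENCODE. The Gfap stretch covers chr11:102897201-102897450, minus strand, up to the start and inside the gene's annotated span because another transcript starts further upstream. Capitals mark GC boxes, searched as GGGCGG on both strands.
Nes: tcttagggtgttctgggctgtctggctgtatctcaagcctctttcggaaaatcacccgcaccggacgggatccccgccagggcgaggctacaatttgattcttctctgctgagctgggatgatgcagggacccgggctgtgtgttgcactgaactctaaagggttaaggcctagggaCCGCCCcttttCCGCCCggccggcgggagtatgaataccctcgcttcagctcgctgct
Gfap: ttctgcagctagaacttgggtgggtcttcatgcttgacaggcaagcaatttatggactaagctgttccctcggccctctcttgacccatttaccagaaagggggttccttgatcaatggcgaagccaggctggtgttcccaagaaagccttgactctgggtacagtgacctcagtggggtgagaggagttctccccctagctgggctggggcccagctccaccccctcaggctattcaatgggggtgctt
The 2 GC boxes of Nes are on the minus strand and begin 73 and 62 bases before the RefSeq start, counted with the 15 bases not printed. A GC box is common, found in 32.7% of the 32851 windows of 250 bases before RefSeq starts. The other motifs searched on both strands were TATAAA (in 12.4% of windows), CCAAT (33.8%), TGAGTCA (4.46%), TTCNNNGAA (7.02%) and ACAAAG (16.5%), and none of these letters occurred in either stretch. The Vim window, not printed because it overlaps an exon of another Vim transcript, held TATAAA 32 bases before the start and CCAAT at 196 and 94 bases.

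The libraries held 13952738 to 15607754 reads each, of which 529162 to 643055 were counted for genes. In each library 95.2% to 95.7% of the uniquely mapped reads fell in no gene. The strand setting of the counting is not given in the sources used here. Rows opposite an exon of another gene held 84.0% of all counted reads, at 187 reads per kb of exon over the 13 libraries, against 13.2 reads per kb for rows with no gene opposite. Nes and Vim are rows of the second kind, and Gfap is one of the rows opposite an intron only, at 9.84 reads per kb. The levels below are therefore levels among the reads counted for genes. They are in CPM, the reads of a gene scaled to a common total of reads so counted. Genes named with an "opposite" partner share bases with it. Their reads, and any difference given for them, may be those of the partner, which was not tested. Rows were judged higher or lower at an adjusted p under 0.05, from edgeR's quasi-likelihood test with Benjamini-Hochberg adjustment over all 7722 genes that passed the filter on low counts. All 3 members passed that filter, Nes and Vim only through the tumors.

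Nes was read in every tumor and in no normal sample. The PDGFB tumors held 98.8, 143, 109, 103 and 97.6 CPM of Nes in tumors 1 to 5, from 59 to 87 reads each. The RAS tumors held 234, 156, 153, 216 and 258 CPM, from 90 to 166 reads each. Each of the 3 normal samples held 0 reads. The lowest RAS tumor, at 153 CPM, was above the highest PDGFB tumor, at 143 CPM, so the tumor groups did not overlap.

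The group means of Nes were 110.2 ± 18.8 CPM (SD, n = 5) in PDGFB tumors and 204 ± 47.2 CPM (SD, n = 5) in RAS tumors. A count of 0 over the 3 normal libraries allows a level of up to 1.74 CPM, taken from 3 reads over the group and covering counting error only. The fold bounds use the same 3 reads but the scaled library sizes of the fit, not CPM. On that scale Nes was at least 53.7-fold higher in PDGFB tumors and at least 110.0-fold higher in RAS tumors. Between the tumor groups Nes was 2.05-fold lower in PDGFB tumors (log2 -1.03 ± 0.22 SE).

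Vim was low in normal brain and had the most counted reads of the 3 genes in every tumor. The PDGFB tumors held 278, 269, 238, 223 and 194 CPM of Vim in tumors 1 to 5. The RAS tumors held 511, 353, 501, 536 and 787 CPM. Normal samples 1 to 3 held 6.81, 5.67 and 14.9 CPM, from 4, 3 and 9 reads. The title of normal sample 3 begins MBT where those of the other two begin NBT, and its source and genotype labels do not differ from theirs. No group overlapped another: every normal sample was below every tumor, and the highest PDGFB tumor, at 278 CPM, was below the lowest RAS tumor, at 353 CPM.

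Mean Vim was 240 ± 34.4 CPM (SD, n = 5) in PDGFB tumors, 538 ± 157 CPM (SD, n = 5) in RAS tumors and 9.12 ± 5.02 CPM (SD, n = 3) in normal brain. The fitted difference from normal was 21.7-fold in PDGFB tumors (log2 4.44 ± 0.38 SE) and 54.0-fold in RAS tumors (log2 5.76 ± 0.38 SE). Without normal sample 3, the one with 9 reads, these became log2 5.06 and 6.37. Vim was 2.49-fold lower in PDGFB than in RAS tumors (log2 -1.32 ± 0.23 SE).

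Gfap was read in every library, and its levels overlapped between all 3 groups. The PDGFB tumors held 72.2, 36.1, 127, 175 and 59.5 CPM of Gfap in tumors 1 to 5. The RAS tumors held 34.4, 246, 20.4, 35.0 and 77.8 CPM. The normal samples held 56.2, 39.7 and 21.5 CPM, from 33, 21 and 13 reads. RAS tumor 2 was higher than any other library, while RAS tumor 3 was below every normal sample.

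Mean Gfap was 94.0 ± 56.4 CPM (SD, n = 5) in PDGFB tumors, 82.7 ± 93.9 CPM (SD, n = 5) in RAS tumors and 39.1 ± 17.4 CPM (SD, n = 3) in normal brain. The highest and lowest PDGFB tumors differed 4.85-fold, and the highest and lowest RAS tumors 12.1-fold. The fitted Gfap difference from normal was log2 1.03 ± 0.68 SE in PDGFB tumors and log2 0.96 ± 0.69 SE in RAS tumors. Between PDGFB and RAS tumors it was log2 0.07 ± 0.55 SE, smaller than its error. Without RAS tumor 2 the RAS mean was 41.9 ± 24.9 CPM (SD, n = 4), the difference from normal log2 0.15 ± 0.52 SE, and that between PDGFB and RAS tumors log2 0.97 ± 0.43 SE. With all other libraries kept, the difference between the tumors turned negative without PDGFB tumor 3 (-0.055) or 4 (-0.26), or without RAS tumor 1 (-0.13), 3 (-0.153) or 4 (-0.10), so its direction rests on single libraries. Without PDGFB tumor 4 the difference from normal in PDGFB tumors was log2 0.77, and without normal sample 1 it was 1.5 in PDGFB and 1.40 in RAS tumors.

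**Figure D2:**
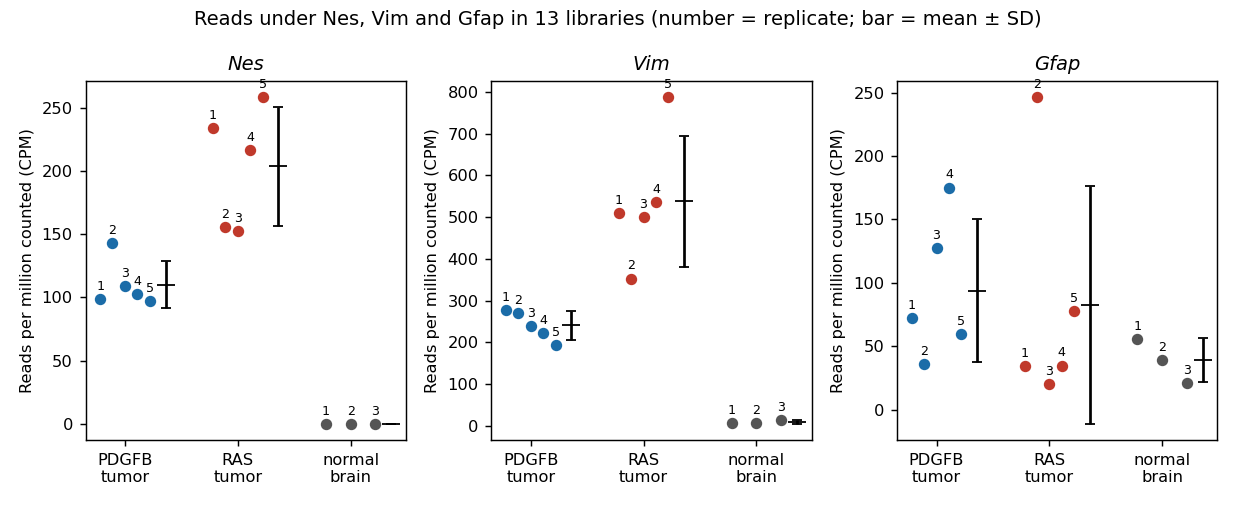
CPM of Nes, Vim and Gfap in each library (points) with the group mean and SD (bars), for 5 PDGFB tumors, 5 RAS tumors and 3 normal samples. Nes and Vim separate all groups, while Gfap reaches 246 CPM in RAS tumor 2 and overlaps between all groups.

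Across all genes tested, 20.2% were higher and 25.1% lower in PDGFB tumors against normal brain, and 26.9% were higher and 29.3% lower in RAS tumors than in normal brain. Between the tumor groups 14.6% were higher and 17.4% lower in PDGFB tumors. Groups that did not overlap, with the tumors higher, were found in 28.2% of genes for PDGFB tumors against normal brain and 25.8% for RAS tumors against normal brain. The corresponding share with PDGFB below RAS tumors, as for Nes and Vim, was 8.88%. Since the values of these contrasts were known when the members were proposed, these shares are background only. They are also the background of the counts over gene lists below. Listed genes with few reads in normal brain, among them Lmnb1, Iffo2, Bag3, Cdk1, Timp1 and Cd44, passed the filter on low counts only through the tumors. Their adjusted p-values against normal brain, and list counts that hold them, are given as a description. Some listed genes passed it only through a single group, among them Lmna, Twist1, Tgfb1 and Cd24a through the RAS tumors. Lmnb1, Dcx and Zeb1 did so through the PDGFB tumors and Krt12 through normal brain. Adjusted p-values of such genes in any comparison with that group, and list counts that hold them, are likewise a description. Both comparisons with normal brain use the same 3 normal samples.

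Replicate spread separated the genes as well. The coefficient of variation of Nes was 17.1% in PDGFB and 23.2% in RAS tumors, and that of Vim was 14.3% and 29.2%. For Gfap it was 59.9% and 114%. RAS tumor 2 held the least Vim of its group but the most Gfap, and its Nes, at 156 CPM, was close to the lowest.

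Levels per kb of exon allow for gene length. The part of each gene's RNA held by its row is not known. The 3 genes are therefore compared here, and in the shares and ranks below, as counted reads only. Vim led the tumors with 50.7 ± 7.25 CPM per kb (SD, n = 5) in PDGFB and 113 ± 33.1 CPM per kb (SD, n = 5) in RAS tumors. The Nes levels on this scale were 17.2 ± 2.94 and 31.7 ± 7.36 CPM per kb (SD, n = 5 each). Those of Gfap were 22.3 ± 13.4 and 19.6 ± 22.3 CPM per kb (SD, n = 5 each). In normal brain the order was Gfap at 9.28 ± 4.12, Vim at 1.92 ± 1.06 and Nes at 0 CPM per kb (SD, n = 3). The mean levels of Nes and Gfap lay within their spread in both tumor groups, and Vim was above both in every tumor. In RAS tumors this rested on tumor 2, with Gfap at 58.4 and Nes at 24.3 CPM per kb. In the other 4 RAS tumors Nes, at 23.8 to 40.2 CPM per kb, was above Gfap, at 4.83 to 18.4 CPM per kb.

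Of the summed per-kb level of the 3 genes, Gfap made up 90.3%, 88.7% and 61.9% in the 3 normal samples. In PDGFB tumors its share was 18.8%, 9.78%, 31.0%, 39.7% and 20.1%. In RAS tumors it was 5.35%, 37.2%, 3.60%, 5.35% and 8.21%. Every tumor was below every normal sample in the Gfap share, and RAS tumor 2 was the only RAS tumor inside the PDGFB range. The Vim share was 56.8 ± 8.5% in PDGFB and 68.7 ± 12.3% in RAS tumors, and the Nes share was 19.4 ± 4.13% and 19.4 ± 3.41% (SD, n = 5 each). Vim stood 2.55 to 3.8 times above Nes in PDGFB tumors and 2.95 to 4.43 times above it in RAS tumors, per kb. The summed level was 11.2 ± 3.31 CPM per kb in normal brain (SD, n = 3), 90.1 ± 12.9 in PDGFB and 165 ± 34.7 in RAS tumors (SD, n = 5 each).

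**Figure D3:**
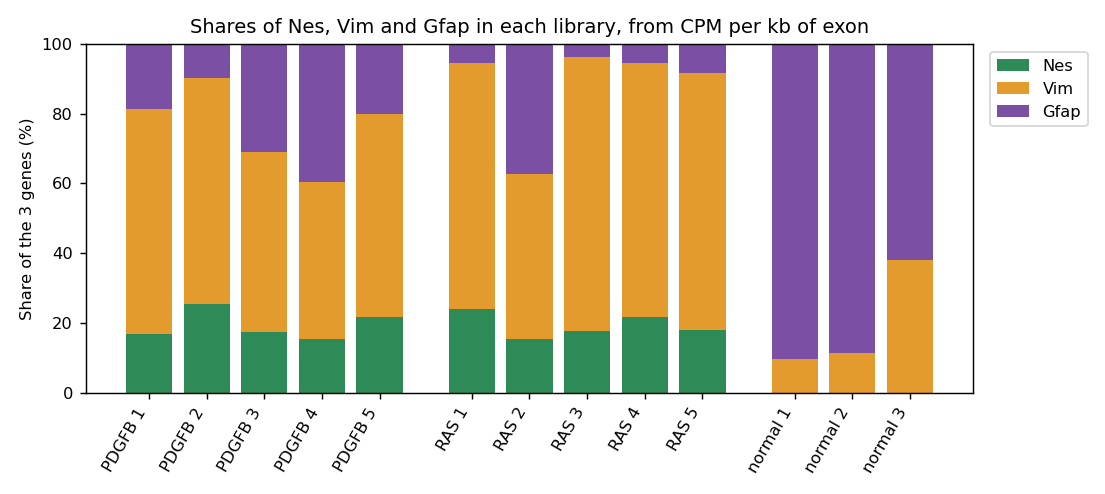
Share of Nes, Vim and Gfap in their summed CPM per kb of exon (percent) in each of the 13 libraries. Gfap makes up 61.9% to 90.3% in normal brain and 3.60% to 39.7% in tumors, where Vim is the larger part.

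Among the 13846 protein-coding rows with no gene opposite, 40 had a mean per-kb level above that of Vim in RAS tumors and 62 in PDGFB tumors, against 2741 in normal brain. For Nes the number was 189 in RAS and 304 in PDGFB tumors. For Gfap it was 319 in RAS tumors, 222 in PDGFB tumors and 609 in normal brain.

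The other intermediate filament genes followed no single direction. Of 25 listed, 9 were tested, and 5 of these lie opposite an exon. In PDGFB tumors against normal brain 2 of 9 were higher and 5 lower, with a median log2 difference of -1.59. In RAS tumors against normal brain 3 were higher and 3 lower, with a median of 0.19. In PDGFB against RAS tumors 2 were higher and 3 lower, with a median of 0.42. The medians over all genes tested were 0.00, 0.02 and 0.03. The higher count between the tumors was 1 without PDGFB tumor 1 and 4 without RAS tumor 2.

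Neurofilament genes, which build the filaments of axons, gave the largest values of this list. Nefm (opposite Nefl) stood at 276 ± 90.1 CPM in PDGFB tumors, 5069 ± 1991 CPM in RAS tumors (SD, n = 5 each) and 4164 ± 233 CPM in normal brain (SD, n = 3). It was 17.8-fold lower in PDGFB tumors than in normal samples (adjusted p = 4.16e-08) and 20.3-fold lower than in RAS tumors (adjusted p = 2.45e-08). RAS tumors ranged from 3468 to 8196 CPM and overlapped normal brain (log2 0.19, adjusted p = 0.582). Nefl (opposite Nefm) ran alongside it, at 11.8, 223 and 135 CPM, so the 2 rows share bases and are not separate evidence. Its RAS difference from normal had an adjusted p of 0.122, and of 0.015 without RAS tumor 2.

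Nefh, the heavy neurofilament chain, has no gene opposite and gave another order. Its levels were 3.14, 14.8, 35.9, 33.1 and 6.62 CPM in PDGFB tumors and 1.64, 37.8, 1.70, 4.77 and 7.78 CPM in RAS tumors, against 180 to 198 CPM in normal brain. Nefh was 11.8-fold lower in PDGFB (adjusted p = 1.54e-04) and 18.7-fold lower in RAS tumors (adjusted p = 3.29e-05). The highest RAS tumor was again tumor 2, and without it Nefh was higher in PDGFB than in RAS tumors (adjusted p = 0.0188, against 0.484 with it). Ina (opposite Nt5c2), the alpha-internexin gene, fell from 121 CPM in normal brain to 47.3 CPM in PDGFB tumors (adjusted p = 0.0121, but 0.0846 without normal sample 2) and 11.1 CPM in RAS tumors (adjusted p = 4.01e-05).

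Lamin genes encode the filaments that line the nucleus. Lmna stood at 7.84 to 13.1 CPM in PDGFB tumors and at 80.2, 32.8, 39.1, 73.2 and 382 CPM in RAS tumors, with every RAS tumor above every other library. Lmna was 21.7-fold higher in RAS tumors than in normal brain (adjusted p = 3.5e-04) and 13.4-fold lower in PDGFB than in RAS tumors (adjusted p = 2.76e-04). Without RAS tumor 5 these differences were log2 3.38 rather than 4.44 and -2.59 rather than -3.75. Lmna passed the filter on low counts only through the RAS tumors, so both adjusted p-values are a description. Lmnb1, from 3 reads over the normal group, was higher in PDGFB tumors with a ratio of counts of 14.3 (adjusted p = 8.06e-05; the 95% interval of the ratio is 4.74 to 70.6) and in RAS tumors with one of 6.63 (adjusted p = 0.00205; 2.11 to 33.6). It was 2.14-fold higher in PDGFB than in RAS tumors (adjusted p = 0.019, but 0.0511 without PDGFB tumor 1). Lmnb1 passed that filter only through the PDGFB tumors, so its calls are a description. Iffo2, a filament-family orphan gene, was higher in both tumor groups (adjusted p = 0.00216 and 3.28e-04). Krt12 (opposite A830036E02Rik) was lower in both (adjusted p = 4.08e-05 and 1.75e-05). Krt12 passed that filter only through the normal samples, so these calls are a description too. Krt10 (opposite Gm11940) passed in no comparison, at 58.0, 24.9 and 33.6 CPM. Its adjusted p was 0.39, 0.368 and 0.0591, and without normal sample 3, at 74.4 CPM, it was 0.0063 for PDGFB tumors against normal brain.

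**Figure D4:**
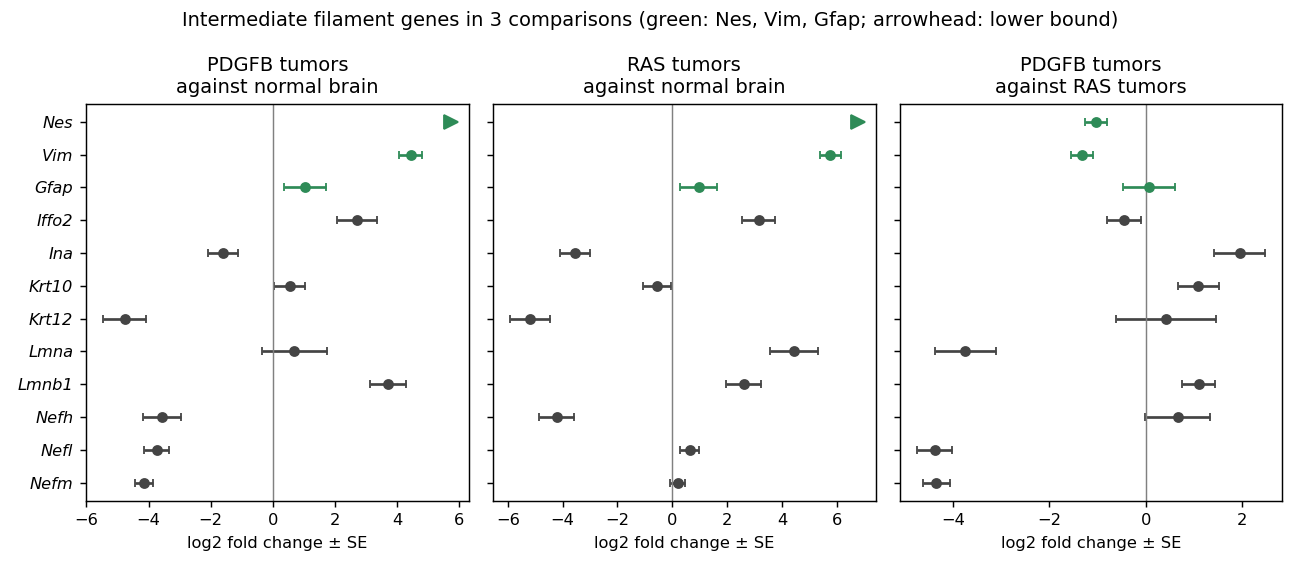
Fitted log2 differences (points, with SE) of Nes, Vim, Gfap and the 9 other tested intermediate filament genes in the 3 comparisons, with arrowheads at the lower bounds of Nes against normal brain. Vim lies at 4.44 and 5.76 against normal brain, Gfap near 1 in both, and Nefm at -4.15 in PDGFB and 0.19 in RAS tumors.

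Genes for proteins that link intermediate filaments or keep them folded were called in both directions. Of 8 tested of 11 listed, 2 were higher and 1 lower in PDGFB tumors against normal brain (median log2 -0.19), and 3 were higher and 1 lower in RAS tumors (median 0.44). For this list and those below, 20.2% of all genes tested were higher and 25.1% lower in PDGFB tumors against normal brain. In RAS tumors these shares were 26.9% and 29.3%, and in PDGFB against RAS tumors 14.6% and 17.4%. Plec, the gene of plectin, which ties vimentin to actin and to cell junctions, stood at 76.8 ± 40.2 CPM in RAS tumors (SD, n = 5), 20.9 ± 9.98 CPM in PDGFB tumors (SD, n = 5) and 20.2 ± 7.32 CPM in normal brain (SD, n = 3). It was 3.56-fold higher in RAS tumors than in normal brain (adjusted p = 0.00396). The small chaperone gene Hspb8 was 7.18-fold higher there (adjusted p = 0.0012), and its partner Bag3 was higher by 18.3 in counts (adjusted p = 2.48e-04, with 4.89 to 154 as the 95% interval). Hspb8 and Bag3 passed the filter on low counts only through the RAS tumors. Between the tumors 1 of the 8 was higher and 4 were lower in PDGFB tumors (median -0.69). That lower count was 2 without PDGFB tumor 1, RAS tumor 3 or RAS tumor 5, and Dst (opposite Gm26788 and A930005N03Rik), a linker gene, lost its higher call without PDGFB tumor 1 or 2 or RAS tumor 4 or 5. Against normal brain in PDGFB tumors the higher count was 1 without PDGFB tumor 2, RAS tumor 3, 4 or 5, or normal sample 2. There the lower call, of the envoplakin gene Evpl, was lost without PDGFB tumor 1, 3, 4 or 5, RAS tumor 1 or any normal sample and with library totals, and 2 were lower without RAS tumor 3.

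Of the 7 tested genes of 11 for kinases that phosphorylate these filaments, 2 were higher and 4 lower in PDGFB tumors against normal brain, and 3 were higher and 3 lower in RAS tumors (median log2 -1.09 and -0.30). Cdk1, the mitotic kinase that phosphorylates vimentin and nestin, had 0 reads in normal brain and passed the filter on low counts only through the tumors. Its level was at least 11.6-fold higher in PDGFB tumors and at least 8.21-fold higher in RAS tumors than in normal brain. Camk2a, a kinase of excitatory neurons, was 17.1-fold and 18.6-fold lower (adjusted p = 1.58e-04 and 8.12e-05). Between the tumors 1 of 7, Camk2b, was higher in PDGFB tumors and 0 were lower (median 0.09), with 2 lower at an unadjusted p under 0.05 and 0 by DESeq2. Without RAS tumor 2 the counts were 2 and 1, and without PDGFB tumor 2 or RAS tumor 3 there was 1 lower.

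Regulators of Gfap include the JAK-STAT pathway, NFI and SMAD factors and Notch. Of 8 tested of 17 listed, 2 were higher and 1 lower in PDGFB tumors against normal brain (median log2 0.30), and 1 was higher and 1 lower in RAS tumors (median 0.33). The row of Stat3 (opposite Stat5a) was 3.17-fold higher in PDGFB (adjusted p = 0.00229) and 4.46-fold higher in RAS tumors (adjusted p = 1.57e-04). Stat3 is the transcription factor that activates Gfap after cytokine signals, and the reads may be those of Stat5a. Dnmt1, a DNA methyltransferase, was 2.63-fold higher in PDGFB tumors (adjusted p = 0.00943). Jak1 (opposite Raver2) was the lower member in both, a call lost in PDGFB tumors without normal sample 1 or 2 or with no filter. In RAS tumors the Jak1 call was lost in 15 of 18 alternatives, among them DESeq2 and leaving out any RAS tumor or normal sample. A second member was higher in RAS tumors without RAS tumor 2. Between the tumors edgeR found 0 higher and 0 lower of 8 (median -0.10), with 0 higher and 1 lower at an unadjusted p under 0.05, 0 and 0 by DESeq2, and 1 higher without RAS tumor 3.

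Regulators of Nes include the SOX and POU factors that act on its neural enhancer. Of 6 tested of 10 listed, 3 were higher and 1 lower in PDGFB tumors against normal brain (median log2 1.11). Sox2, a factor of neural stem cells, stood at 44.7 ± 10.7 CPM in PDGFB tumors, 18.9 ± 6.09 CPM in RAS tumors (SD, n = 5 each) and 11.5 ± 1.92 CPM in normal brain (SD, n = 3). It was 3.24-fold higher in PDGFB tumors than in normal brain (adjusted p = 9.25e-04) and 2.13-fold higher than in RAS tumors (adjusted p = 0.00563). Nes had the opposite order between the tumors. In RAS tumors against normal brain edgeR found 0 higher and 1 lower of 6 (median 0.21), with 1 higher at an unadjusted p under 0.05 and 0 by DESeq2. That 0 became 1 without RAS tumor 4 or normal sample 3 and 2 without RAS tumor 5. The lower member in both was Thra (opposite Nr1d1), a thyroid hormone receptor gene. In PDGFB against RAS tumors 2 of 6 were higher (4 without RAS tumor 2) and 0 lower (median 0.82), with 0 lower by unadjusted p or by DESeq2.

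Regulators of Vim include AP-1 factors and the transcription factors of epithelial to mesenchymal transition. Of 10 tested of 15 listed, 4 were higher and 1 lower in PDGFB tumors against normal brain (median log2 0.44), but 2 were higher without normal sample 2 or 3, and Fosl1 (opposite Ccdc85b) lost its lower call without normal sample 3. In RAS tumors 5 were higher and 1 lower (median 0.86), and between the tumors 1 was higher and 3 lower in PDGFB tumors (median -0.32). Twist1 was read at 39.3, 19.7, 11.9, 22.3 and 40.4 CPM in RAS tumors and at 0 to 1.65 CPM in PDGFB tumors. Its counts in RAS tumors were 45.6 times those in PDGFB tumors (adjusted p = 6.94e-05, with 12.2 to 383 as the 95% interval). Tgfb1, a secreted inducer of Vim, was 10.5-fold lower in PDGFB than in RAS tumors (adjusted p = 4.85e-04). Twist1 and Tgfb1 passed the filter on low counts only through the RAS tumors. Their adjusted p-values and the count of lower genes are therefore a description. The third lower gene was Smad3, named after its values were seen, at an adjusted p of 0.049. When the tumors were fitted alone 0 were lower, since Twist1 and Tgfb1 then failed the filter on low counts and Smad3 had an adjusted p of 0.0549. In the other direction, Zeb1 (opposite Gm10125) was 3.78-fold higher in PDGFB tumors (adjusted p = 6.3e-04). Zeb1 passed that filter only through the PDGFB tumors, so this call is a description too.

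The 16 reactive astrocyte genes summed to 617 to 776 CPM in RAS tumors, 152 to 207 CPM in PDGFB tumors and 47.7 to 52.9 CPM in normal brain, where 8 were at 0. Of the 16 listed, 9 were tested, and 7 of these passed the filter on low counts only with the RAS tumors in the fit, so that counts over the list are given as a description and support nothing. Against normal brain 6 were higher and 0 lower in PDGFB tumors, and 7 higher and 0 lower in RAS tumors. Between the tumors 0 were higher and 6 lower in PDGFB tumors. The zeros by edgeR stayed 0 at an unadjusted p under 0.05 and by DESeq2. With PDGFB tumors and normal brain fitted alone 1 was higher, Serpina3n. Timp1, an inhibitor of metalloproteinases, was read at 172, 96.8, 168, 254 and 106 CPM in RAS tumors, at 0 to 11.5 CPM in PDGFB tumors and at 0 in normal brain. Timp1 was 27.6-fold lower in PDGFB than in RAS tumors (adjusted p = 2.45e-06). Cd44, a hyaluronan receptor, was 6.89-fold lower in PDGFB tumors (adjusted p = 1.32e-05) and had 0 reads in normal brain. Serpina3n, a protease inhibitor induced in reactive astrocytes, was at 68.4 ± 10.3 CPM in PDGFB and 104 ± 60.9 CPM in RAS tumors (SD, n = 5 each), from 1 read in normal brain, and did not separate the tumors (adjusted p = 0.104).

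Genes of resting astrocytes were mostly lower in the tumors. Of 12 tested of 15 listed, 0 were higher and 7 lower in PDGFB tumors against normal brain (median log2 -1.78), and 1 was higher and 7 lower in RAS tumors (median -1.73). With 1 higher at an unadjusted p under 0.05 and 0 by DESeq2, the PDGFB count of 0 became 1 without RAS tumor 5. The 1 in RAS tumors, Sox9, was lost without RAS tumor 5 or normal sample 1 or 3. Aldoc, an astrocyte glycolysis gene, was 7.99-fold lower in PDGFB (adjusted p = 3.55e-04) and 8.23-fold lower in RAS tumors (adjusted p = 2.1e-04), and Slc1a2 (opposite Gm13872), a glutamate transporter gene, 6.81-fold and 10.2-fold lower (adjusted p = 3.92e-04 and 5.76e-05). Between the tumors Gja1, the gene of connexin 43, was the single member lower in PDGFB tumors (6.57 against 60.1 CPM, adjusted p = 1.43e-04), and 0 were higher (median 0.18), with 1 at an unadjusted p under 0.05 and 0 by DESeq2. Without RAS tumor 2, 3 were higher.

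Gfap and the summed astrocyte markers were highest in the same tumor of each tumor group. The 15 markers summed to 340, 384, 388, 562 and 314 CPM in PDGFB tumors 1 to 5 and to 216, 762, 170, 220 and 291 CPM in RAS tumors 1 to 5. Normal samples summed to 1092 to 1320 CPM, and no marker was at 0 in any group. PDGFB tumor 4 and RAS tumor 2 were each the highest of their group in both measures, and RAS tumor 3 the lowest RAS tumor in both. Among PDGFB tumors the lowest Gfap was in tumor 2 and the lowest marker sum in tumor 5. Normal brain had the highest marker sums but Gfap within the tumors' range. The neuron markers, 12 genes, also summed highest in these 2 tumors, to 448 and 522 CPM, against 1843 to 1958 CPM in normal brain. In bulk tissue, fewer astrocytes and less RNA per astrocyte cannot be told apart.

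**Figure D5:**
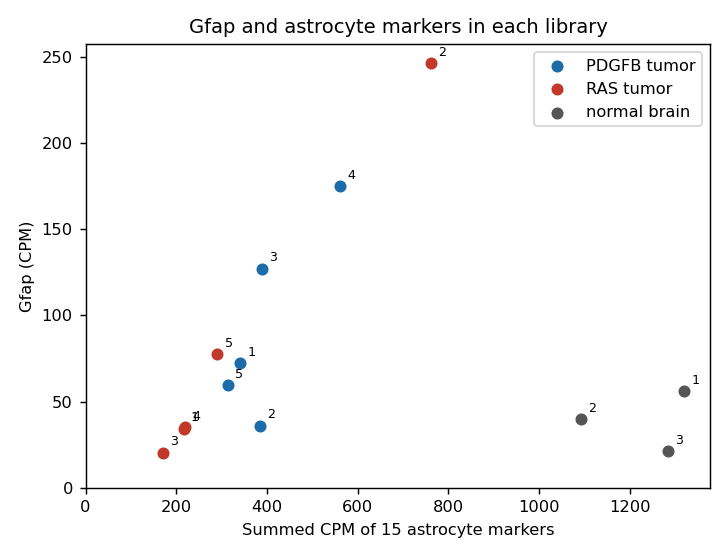
Gfap (CPM) against the summed CPM of 15 astrocyte markers in each library. PDGFB tumor 4 and RAS tumor 2 are the highest of their groups on both axes, and the 3 normal samples lie at 1092 to 1320 CPM of markers with 21.5 to 56.2 CPM of Gfap.

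Neural progenitor genes, among which Nes is usually counted, included more higher than lower members in each comparison. Of 7 tested of 12 listed, 5 were higher and 0 lower in PDGFB tumors against normal brain (median log2 1.71), and 3 were higher and 0 lower in RAS tumors (median 1.22). Both counts of 0 by edgeR were also 0 at an unadjusted p under 0.05 and by DESeq2. Cd24a, Dcx, Fabp7, Sox2 and Sox11 passed the filter on low counts only through the tumors. The counts over this list against normal brain are therefore a description and support nothing. Between the tumors 4 were higher in PDGFB tumors, 2 without PDGFB tumor 4, and 1 lower (median 0.69). Dcx, a higher member, passed the filter only through the PDGFB tumors, and Cd24a, the lower member, only through the RAS tumors. The counts between the tumors are thus a description too. Fabp7, a lipid carrier found in radial glia, stood at 144 ± 24.5 CPM in PDGFB tumors, 30.0 ± 26.8 CPM in RAS tumors (SD, n = 5 each) and 4.27 ± 4.49 CPM in normal brain (SD, n = 3). It was 4.38-fold higher in PDGFB than in RAS tumors (adjusted p = 0.00214), while Nes was 2.05-fold lower there.

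Cells other than glia also express Vim, and their marker sums are given as values with no test. The 12 macrophage and microglia markers summed to 704 to 1113 CPM in RAS tumors, 366 to 466 CPM in PDGFB tumors and 363 to 412 CPM in normal brain, where Ptprc was at 0, so that PDGFB tumors and normal brain overlapped. The 9 fibroblast and meningeal markers summed to 236 to 687 CPM in RAS, 210 to 350 CPM in PDGFB tumors and 28.9 to 34.0 CPM in normal brain, where Lum and Postn were at 0. In PDGFB tumors most of that sum, 152 to 287 CPM, was Pdgfra (opposite Gm42802 and Gm42803), which oligodendrocyte precursors also express. The other 8 summed to 54.2 to 104 CPM there, 200 to 652 CPM in RAS tumors and 16.5 to 20.8 CPM in normal brain. The next sums are given for RAS tumors, PDGFB tumors and normal brain, in that order. The 10 endothelial markers summed to 60.7 to 94.9, 16.5 to 71.8 and 23.1 to 28.9 CPM. Cd93 and Cldn5 were at 0 in normal brain. The 8 pericyte and smooth muscle markers summed to 57.5 to 205, 65.7 to 96.2 and 56.2 to 64.3 CPM. Myh11 was at 0 in both tumor groups. The 6 ependymal markers, of cells that also make Vim, summed to 88.4 to 209, 198 to 246 and 244 to 359 CPM, nearly all of it Rarres2 (opposite Lrrc61), and the other 5 to at most 8.26 CPM in any library. The part of these cells in the Nes and Vim levels was not tested.

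By the likeness of their profiles, Vim and Nes lay near each other and Gfap apart. The measure was the root mean square difference between centred log2(CPM + 1) profiles over the 13 libraries, where 0 means the same profile. It was 0.90 between Nes and Vim, 2.94 between Nes and Gfap and 2.30 between Vim and Gfap. Among 5773 candidate genes those nearest Vim were Cdkn2a at 0.42, AI506816 at 0.53 and Clic1 at 0.57. Cdkn2a, a tumor suppressor locus, stood at 24.7 ± 6.13 CPM in PDGFB and 43.9 ± 12.3 CPM in RAS tumors (SD, n = 5 each) with 0 reads in normal brain. Those nearest Nes were Zfp961 (opposite Cyp4f18) at 0.81, LTO1 (opposite Ccnd1) at 0.88 and Vim itself. Those nearest Gfap were Spon1 at 0.63, Apod at 0.70 and Htatsf1 at 0.72.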

How the data were processed

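RNA from 5 PDGFB tumors, 5 RAS tumors and 3 normal samples was polyA-selected and made into TruSeq libraries, per the labels' protocols. Tools listed without a role in the submitters' processing notes are STAR 2.7.9a and fastp 0.22.0, with the GRCm38 build, and the annotation and strand setting are not given in the sources used here. The authors deposited raw read counts per gene. The members and lists were chosen with earlier results of these data known. Gene IDs were matched to GENCODE M21 (52083 of 55416). The 4 rows that name no gene were left out of library sizes. Genes were filtered with filterByExpr (minimum count 10, minimum total 15), scaled by TMM and fitted by the quasi-likelihood test of edgeR 4.0.16 (limma 3.58.1, R 4.3.3) with 1 coefficient per group over 13 libraries and Benjamini-Hochberg adjustment at 0.05. CPM were taken over reads counted for genes. A gene with 0 reads in a group was bounded at 3 reads, and one with 1 to 3 reads was given as a count ratio with its exact 95% interval. Intervals and bounds cover counting error only.

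Genes were named by rule: the members, every tested intermediate filament gene, the 3 called genes with the largest change in each other list and comparison (or its most abundant), and the 3 nearest each member in profile. Sox9, Cd93, Cldn5 and other markers at 0 were named after their values were seen. Of 210 list entries 209 were matched, and the other is not analysed here. A further listed gene is not reported here. Scripts were tested on simulated data. Alternatives were median-of-ratios and library-total scaling, all reads as the total, no filter, DESeq2 1.42.0, the compared groups alone, a replicate block and leaving out each library. Adding rows opposite the members' exons could not be run, since there are none.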

Additional observations from a re-analysis of the deposited data

Results flagged for a closer look

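In a group of 5 tumors, a value was singled out when the highest or lowest tumor lay far from its nearest neighbour relative to the whole range. This held for 31 of the 194 groups of 5 examined. The limit used gives about 1 in 20 (5%) for independent, normally distributed values. Many of these values come from few reads, and all groups share the same tumors, so 5% is not their chance rate. RAS tumor 2 was the distant tumor in 16 of the 31.

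Among the members, Nes was distant in PDGFB tumor 2 (143 CPM) and Gfap in RAS tumor 2 (246 CPM). In RAS tumor 2 the list also held Nefh (37.8 CPM), Ina (41.0), Krt12 (6.57), Camk2a (90.3), Aldoc (59.1), Slc4a4 (29.5), Mag (13.1), Gad2 (26.3), Slc1a2 (110.0), Mobp (62.4), Snap25 (68.9), Syt1 (54.2) and Map2 (93.6), all genes of neurons, astrocytes or myelin apart from Krt12. The marker sums of astrocytes (762 CPM) and neurons (522 CPM) stood out in the same tumor. The part of these cells in its Gfap level was not tested. In RAS tumor 5 the distant values were Lmna (382 CPM), Hspb8 (4.67) and Col3a1 (99.5).

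In PDGFB tumor 4 the distant values were Krt12 (13.2 CPM), Fosl1 (77.7), Mal (16.5) and Slc1a2 (124). In PDGFB tumor 3 they were Serpina3n (86.5), Hspb8 (9.79) and Camk2b (42.4), and in PDGFB tumor 2 Fgfr3 (18.1), Map2 (135) and the sum of the linker and chaperone genes (342). Col1a2 was distant in PDGFB tumor 5 (14.9 CPM).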

How the results depend on the processing

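The lower bound of the Nes difference from normal in PDGFB tumors was log2 5.98 with library totals and 6.07 with all reads as the total, and 5.20 to 5.85 when 1 library was left out. The bound in RAS tumors ranged from 6.22 to 6.998 over libraries left out. The Vim difference from normal ranged from 4.31 to 5.06 in PDGFB and from 5.57 to 6.37 in RAS tumors. The Gfap difference between the tumors ranged from -0.26 to 0.97 (-0.055 without PDGFB tumor 3, -0.26 without PDGFB tumor 4, -0.13 without RAS tumor 1, -0.153 without RAS tumor 3 and -0.10 without RAS tumor 4). Other directions that turned were Krt10 in RAS tumors against normal brain (-0.927 to 0.838 when 1 library was left out, positive without normal sample 3), and between the tumors Krt12 (-1.894 without PDGFB tumor 4) and Cd93 (0 with library totals, and -0.311 to 0.112 when 1 library was left out, with 0.027 without RAS tumor 3). The cause was not tested. Tumors of the same number share only a number: their deviations correlated at 0.14, -0.01, -0.03, -0.13 and 0.07, and 1 of 5 tumor numbers matched itself best. With a replicate block on the tumors alone 890 genes were lower in PDGFB tumors, against 1346 in the fit of all 13 libraries and 1020 with the tumors alone and no block, and the differences were log2 -1.002 for Nes, -1.256 for Vim and 0.47 for Gfap. Library totals moved the median gene by log2 0.23, 0.09 and 0.14 in the 3 comparisons, and the members kept their direction under it. Of the named genes' values under alternatives 2372 kept their side of the threshold and direction, 75 lost the call, 11 gained it and 5 turned. Alternatives in which a named gene failed the filter or had no adjusted p are left out of these numbers. Calls lost in that way are thus not among the 75. Of the list counts 1723 stayed within 1.5 times and 147 did not. The normal libraries held 0 to 9 reads of Nes and Vim each, which limits every fold against them.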

Other observations

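Genes of the oligodendrocyte lineage showed how the tumors with less Nes and Vim differed in other glial programmes. All 10 oligodendrocyte precursor genes listed were higher in PDGFB than in RAS tumors by edgeR's quasi-likelihood test, with a median log2 difference of 1.93. Over all genes tested 14.6% were higher there, and 20.2% and 26.9% were higher in PDGFB and RAS tumors than in normal brain. Cspg4, Olig2 and Pcdh15 passed the filter on low counts only through the PDGFB tumors, so their calls are a description. Against normal brain 8 of 10 were higher in PDGFB tumors (median 2.77) and 3 were higher and 1 lower in RAS tumors (median -0.02). Olig2, a lineage transcription factor, stood at 63.8 ± 8.07 CPM in PDGFB tumors, 7.91 ± 6.22 CPM in RAS tumors (SD, n = 5 each) and 9.80 ± 2.18 CPM in normal brain (SD, n = 3), 7.24-fold higher in PDGFB than in RAS tumors (adjusted p = 2.19e-05). Pdgfra (opposite Gm42802 and Gm42803), the row of the receptor gene that binds PDGF, was 14.9-fold higher in PDGFB (adjusted p = 1.81e-06) and 3.70-fold higher in RAS tumors (adjusted p = 7.17e-04) than in normal brain. Summed over the 10 genes, the PDGFB tumors held 969 to 1324 CPM, the RAS tumors 117 to 522 CPM and the normal samples 175 to 231 CPM.

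Of the mature oligodendrocyte genes, 5 of 7 tested were lower in PDGFB and 6 of 7 in RAS tumors than in normal brain (median log2 -3.67 and -3.23). Over all genes tested 25.1% and 29.3% were lower. Mbp, the gene of myelin basic protein, fell from 528 ± 102 CPM in normal brain (SD, n = 3) to 46.7 ± 19.5 CPM in PDGFB and 41.1 ± 30.8 CPM in RAS tumors (SD, n = 5 each), with adjusted p of 3.15e-06 and 1.34e-06.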
